A study of Mus musculus with 12 samples.

Results

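The AP-1 transcription factor genes Fos, Fosb, Fosl1, Fosl2, Jun, Junb, Jund and Atf3 were measured together with Egr1 and Myc in mouse keratinocytes and skin. All probe sets whose platform gene symbol was one of these 10 names were taken, which gave 12 of the 22626 probe sets that are not controls. Fosl1 and Jun had 2 probe sets each and the other genes 1 each. Every gene was also among the 12393 genes represented by their brightest probe set. The 12 Affymetrix arrays, 1 per RNA sample, came from 5 primary keratinocyte cultures, 2 newborn skin samples and 5 skin samples from mice aged 30 days. The cultures were grown from newborn mice without passage for at most 3 days in medium with little calcium, which keeps keratinocytes basal and dividing, and each pooled the cells of 5 animals. Cultures 1 and 2 and all 30-day skin had the mixed C57 DBA FVB background, whereas cultures 3 to 5 and both newborn skin samples were FVB. Strain and age therefore coincide within skin. No mutant allele or treatment is named for any group. Whether each skin sample is a different animal is not in the labels, and the p-values below therefore reflect sample-to-sample spread that could be purely technical.

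AP-1 is a dimer of a Jun protein with a Fos, Jun or Atf protein, and it binds short palindromic sites in genes of proliferation, migration and differentiation. Fos, Fosb, Jun, Junb, Atf3 and Egr1 are immediate early genes, switched on within minutes by growth factors, stress or wounding through MAP kinases and serum response factor. Myc pairs with Max and drives ribosome production, growth and division. In epidermis AP-1 members are known from the control of both basal proliferation and late differentiation, and Myc from the movement of cells out of the stem cell pool.

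Signals are log2 values made by RMA, and 1 unit is a doubling. They carry no detection call, levels of different probe sets are not comparable, and signals below the array medians of 5.86 to 6.01 may lie near background. Differences were tested with limma over all 12393 genes, called at an adjusted p under 0.05, and are given with their standard error (SE). An array was unusual in its RNA quality controls, replicate 1 of 30-day skin. The actin signal at the 3' end exceeded that at the 5' end by 1.74 there, against 0.67 to 0.82 in the other 4 arrays of the group, and it was the lowest of its group for 7 of the 12 probe sets described here. The mean of 10 keratinocyte markers was 10.01 to 10.64 in culture, 10.56 and 10.57 in newborn skin and 10.14 to 10.31 in 30-day skin, but 5 of them were higher and 3 lower in culture, with basal Krt14 at 1.15 and suprabasal Krt1 and Krt10 at -2.86 and -4.16. Markers of most other cell types of skin were far lower in culture, while those of melanocytes (7.04 to 8.55 in culture, 8.11 to 9.16 in skin) overlapped. The mean of 8 fibroblast markers was 5.44 to 5.97 in culture against 10.32 to 11.09 in skin, that of 8 skeletal muscle markers 5.17 to 5.45 against 10.45 to 11.26, that of 8 endothelial markers 4.76 to 4.97 against 5.84 to 6.65, that of 8 macrophage markers 4.82 to 5.12 against 7.32 to 7.98, and that of 7 hair follicle markers 4.93 to 5.08 against 9.90 to 11.17. The part of these cell types in the differences between culture and skin was not tested. In skin, fewer cells of a type and less RNA per cell cannot be told apart.

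The first question was how cultured keratinocytes differ from skin. Myc, Fosl1, Junb and Jun were higher in culture, and Fos, Egr1 and Jund were lower. Fosb, Fosl2 and Atf3 did not pass the threshold against the equally weighted mean of both ages of skin. Thus 7 of 10 genes were called, 4 higher and 3 lower, where 47.0% of all genes were called (24.6% higher and 22.4% lower). The arrays of culture and skin did not overlap for 5 of the 10 genes, against 29.1% of all genes. When newborn skin was the only reference, 4 of the 10 genes were higher and 4 lower, where 36.5% of all genes were called (17.9% higher and 18.6% lower). With 30-day skin as the only reference it was 5 and 3, where 48.3% of all genes were called (26.5% higher and 21.9% lower). Both comparisons use the same cultures. The median difference of the 10 genes was 0.12 and that of all genes 0.01. These directions are relative to the authors' normalisation. Centring each array on 19 epithelial genes, which were higher in culture by 0.64, shifted the median gene to -0.63, and the calls became 2 higher and 6 lower among the 10 genes and 623 higher and 9845 lower among all genes, against 3054 and 2775 with the deposited values. Myc and Fosl1 stayed higher and Fos, Egr1 and Jund lower in that setting, whereas Jun and Junb ended at -0.08 and -0.02 and lost their calls, and Fosb (-0.82), Fosl2 (-0.60) and Atf3 (-0.44) were called lower. Centring on the array medians raised the median gene to 0.17 and gave 5075 higher and 2027 lower genes, with 5 and 3 among the members, and quantile normalisation again gave 3855 and 2417 genes and also 5 and 3 members.

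**Figure D1:**
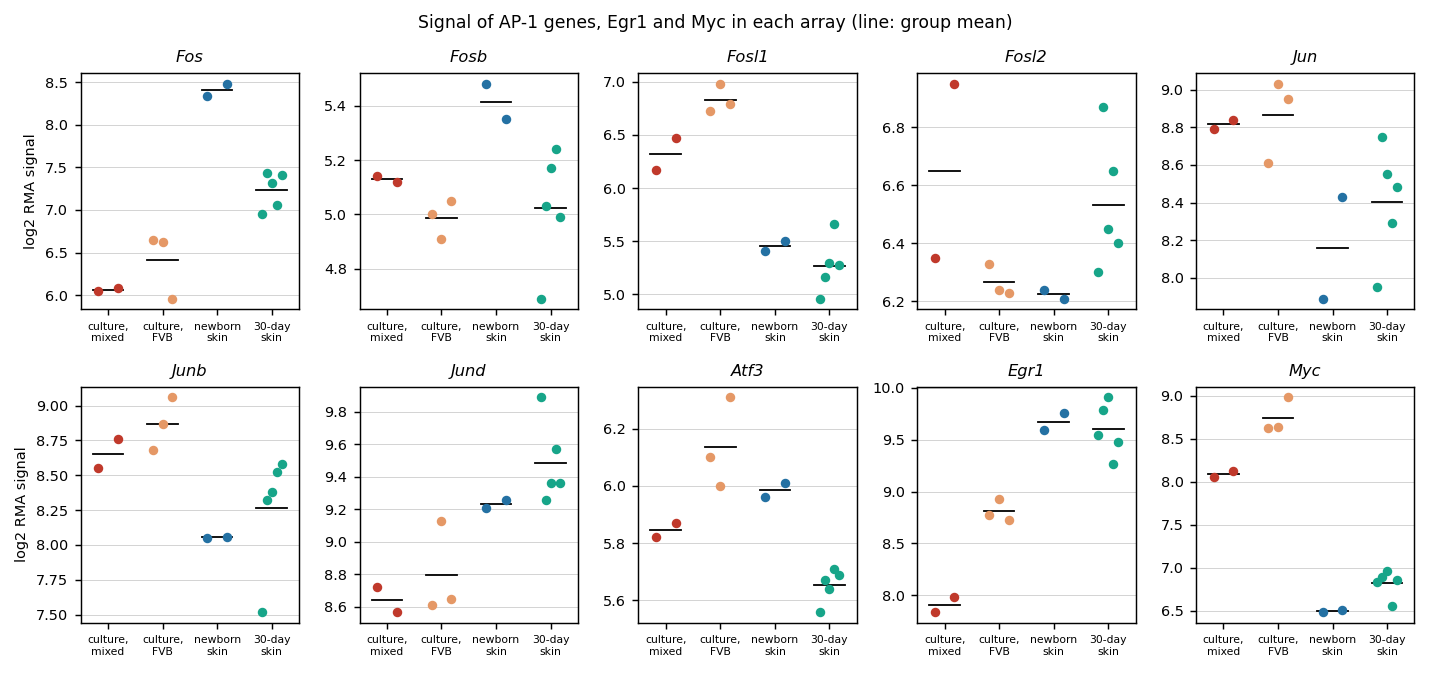
Log2 RMA signal (vertical axes) of the 10 genes in each of the 12 arrays, by group; every point is 1 array and the black line is the group mean. Fos, Egr1 and Jund lie lower in all 5 cultures than in all 7 skin arrays, and Fosl1 and Myc lie higher.

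Fos, the founding partner of Jun, was the member that fell most. Its probe set 1423100_at read 6.05, 6.08, 6.65, 6.62 and 5.96 in cultures 1 to 5. It read 8.34 and 8.48 in newborn skin, and 6.95, 7.44, 7.32, 7.06 and 7.41 in 30-day skin. The 3 groups did not overlap, with newborn skin highest, 30-day skin between and culture lowest. The means were 6.27 ± 0.34 (SD, n = 5), 8.41 ± 0.10 (SD, n = 2) and 7.24 ± 0.22 (SD, n = 5). Culture was lower than newborn skin by 4.39-fold (-2.14 ± 0.20, adjusted p = 7.82e-07) and lower than 30-day skin by 1.95-fold (-0.96 ± 0.15, adjusted p = 8.09e-05). Against the mean of both ages the difference was -1.55 ± 0.15 (adjusted p = 5.09e-07), larger in size than that of 94.1% of all genes.

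Fosl1, also called Fra-1, is a Fos protein without the strong activation domain of Fos and is typical of migrating epithelial cells. It went the other way. Probe set 1417487_at read 6.17, 6.47, 6.73, 6.98 and 6.79 in cultures 1 to 5, 5.41 and 5.50 in newborn skin, and 4.96, 5.16, 5.29, 5.66 and 5.28 in 30-day skin. All cultures exceeded all skin arrays. The gene was higher by 2.25-fold than in newborn skin (1.17 ± 0.20, adjusted p = 0.000286) and by 2.56-fold than in 30-day skin (1.36 ± 0.15, adjusted p = 3.29e-06), while both ages of skin were not told apart (-0.19 ± 0.20, adjusted p = 0.621). Under epithelial centring the difference from newborn skin was 0.41 (adjusted p = 0.0536). The second probe set, 1417488_at, gave a smaller difference in the same direction, at 0.70 ± 0.14 against skin (adjusted p = 0.00103 over all probe sets), again without overlap. Both probe sets lay below the array medians in all 7 skin arrays, so the size of the fold is uncertain.

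Fosb and Fosl2 complete the Fos family. Fosb, a close relative of Fos, read 4.91 to 5.14 in culture, 5.48 and 5.35 in newborn skin and 4.69 to 5.24 in 30-day skin, below every array median. Culture was lower than newborn skin by 1.29-fold (-0.37 ± 0.13, adjusted p = 0.0422), a call lost when the arrays were centred on their medians (-0.20, adjusted p = 0.263) or when any of 7 single arrays was left out, either newborn sample among them. Against 30-day skin its difference was 0.02 (95% confidence interval -0.20 to 0.24). Fosl2, also called Fra-2, read 6.23 to 6.95 in culture, 6.24 and 6.21 in newborn skin and 6.30 to 6.87 in 30-day skin. Culture overlapped both ages of skin, and the difference from skin was 0.04 (95% confidence interval -0.25 to 0.34, adjusted p = 0.827). Culture 2, at 6.95, was far above the other 4 cultures, which lay between 6.23 and 6.35.

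The Jun family also split. Junb, a Jun protein known in skin as a brake on Jun and on inflammation, read 8.55, 8.76, 8.68, 8.87 and 9.06 in cultures 1 to 5, 8.05 and 8.06 in newborn skin, and 7.52, 8.32, 8.38, 8.52 and 8.58 in 30-day skin. Culture stood above newborn skin but touched the top of 30-day skin. The differences were 0.73 ± 0.23 (1.65-fold, adjusted p = 0.0207) and 0.52 ± 0.17 (1.44-fold, adjusted p = 0.0206). The lowest value belonged to replicate 1 of 30-day skin, and without this array the difference from both ages of skin remained called. The call against 30-day skin was lost without culture 5 or among mixed-strain arrays (0.39, adjusted p = 0.183), and that against newborn skin was lost without either newborn sample.

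Jun, the main partner of Fos, read 8.79, 8.84, 8.61, 9.03 and 8.95 in cultures 1 to 5 with probe set 1417409_at, 7.89 and 8.43 in newborn skin, and 7.95, 8.75, 8.55, 8.29 and 8.48 in 30-day skin. Culture was higher by 1.61-fold than newborn skin (0.68 ± 0.19, adjusted p = 0.012) and by 1.36-fold than 30-day skin (0.44 ± 0.15, adjusted p = 0.0215), where 1 array of 30-day skin overlapped. The second probe set, 1448694_at, did not show this difference. It read 8.08 to 8.19 in culture, 8.11 and 8.02 in newborn skin and 7.72 to 8.11 in 30-day skin, with a difference from skin of 0.14 ± 0.09 (adjusted p = 0.236 over all probe sets). The rise of Jun was thus seen with 1 of its 2 probe sets. It was not called against 30-day skin among mixed-strain arrays (0.41, adjusted p = 0.106) or without culture 4, nor against newborn skin without newborn sample 1.

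Jund, which is present in resting cells and opposes proliferation in many cell types, was lower in culture. It read 8.72, 8.57, 8.61, 9.13 and 8.65 in cultures 1 to 5, 9.21 and 9.26 in newborn skin, and 9.89, 9.26, 9.36, 9.57 and 9.36 in 30-day skin. Every culture was below every skin array, with culture 4, at 9.13, just under the lowest skin array. The difference was -0.75 ± 0.13 from 30-day skin (1.68-fold, adjusted p = 0.000211) and -0.50 ± 0.17 from newborn skin (1.41-fold, adjusted p = 0.0341). The call against newborn skin was lost among FVB arrays only (-0.44, adjusted p = 0.0719) and, with all arrays, under median centring (-0.32, adjusted p = 0.14). It was also lost without culture 2, 3 or 5 or either newborn sample. Atf3, a stress-induced bZIP factor that mostly represses, read 5.82 to 6.31 in culture, 5.96 and 6.01 in newborn skin and 5.56 to 5.71 in 30-day skin. It was called only against 30-day skin, at 0.36 ± 0.09 (1.29-fold, adjusted p = 0.00479), a call that was lost among mixed-strain arrays (0.19, adjusted p = 0.167) and turned to -0.16 under epithelial centring.

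The promoters of Fos and Jun are shown because these partners of 1 dimer differed in opposite directions with the deposited values. For Jun the rise was called with probe set 1417409_at but not with 1448694_at, and it was lost under epithelial centring. Promoters of 7 of the 10 genes were matched by symbol in RefSeq (GRCm38.p6), and the 250 bases before the start site were searched on both strands for AP-1 sites (TGANTCA, TGACATCA), cAMP response elements (TGACGTCA, and its core TGACGT, which overlaps it), the Myc site CACGTG, the Egr1 site GCGNGGGCG, the CArG box of serum response factor and TATAAA. Capitals mark the matches, and both sequences run 5′ to 3′.
Fos, chr12:85473640-85473889, plus strand: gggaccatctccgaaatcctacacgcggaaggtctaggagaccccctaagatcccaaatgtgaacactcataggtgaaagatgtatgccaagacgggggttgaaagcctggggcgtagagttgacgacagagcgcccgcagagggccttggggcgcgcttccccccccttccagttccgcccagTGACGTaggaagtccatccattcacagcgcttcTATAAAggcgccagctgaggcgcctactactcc
Jun, chr4:95052223-95052472, minus strand: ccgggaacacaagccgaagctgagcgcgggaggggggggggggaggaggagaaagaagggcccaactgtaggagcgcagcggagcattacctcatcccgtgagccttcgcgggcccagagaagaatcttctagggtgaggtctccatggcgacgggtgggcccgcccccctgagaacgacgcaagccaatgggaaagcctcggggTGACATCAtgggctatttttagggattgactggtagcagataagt
The Fos window held the core TGACGT at -66 to -61, found in 6.47% of 32851 promoter windows, and TATAAA at -33 to -28, found in 12.4%. The Jun window held TGACATCA at -45 to -38, found in 2.93% of windows and spelled like the AP-1 site known from Jun promoters. GCGNGGGCG, in 4.70% of windows, was matched in Fosb and Fosl2, and TGACGT in Atf3 on the opposite strand. The Fosb window, chr7:19310046-19310295 on the minus strand, overlaps the RefSeq span of the gene, which ends at 19310118. Its match, at -50 to -42 from the start site used, lies in that overlap. The Junb and Jund windows had no match. The 7 windows held no TGANTCA (present in 6.75% of all windows). They also held no full cAMP response element (1.55%), Myc site (6.02%) or CArG box (1.47%). Sites further from the start site were not searched, and Fosl1, Egr1 and Myc had no promoter sequence to search.

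Egr1, a zinc finger factor induced by mitogens through ERK kinases, was lower in every culture than in every skin array. It read 7.84, 7.98, 8.77, 8.93 and 8.73 in cultures 1 to 5, 9.59 and 9.76 in newborn skin, and 9.55, 9.79, 9.91, 9.27 and 9.48 in 30-day skin. The difference was -1.22 ± 0.26 from newborn skin (2.33-fold, adjusted p = 0.00193) and -1.15 ± 0.20 from 30-day skin (2.21-fold, adjusted p = 0.000222). Within FVB arrays it was -0.86 (adjusted p = 0.000556), and within mixed-strain arrays -1.68 (adjusted p = 3.4e-07). Of 11 measured Egr corepressors and targets, 4 were higher and 5 lower in culture (81.8%, against 47.0% of all genes), with a median of -0.19. Under epithelial centring 3 were higher and 7 lower, where 623 of all 12393 genes were higher and 9845 lower. Egr2, a sister gene of Egr1, differed by -1.92 ± 0.30 (adjusted p = 8.8e-05) and Nab2, a corepressor that Egr1 induces, by -1.51 ± 0.11 (adjusted p = 2.27e-08). The tissue factor gene F3, the adhesion gene Icam1 and the growth factor gene Pdgfb went up by 2.47, 1.80 and 1.32. Egr3, which missed the threshold, differed by -0.19.

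Most negative feedback genes of the MAP kinase pathway that were called were lower in culture. Of 12 measured phosphatase and feedback genes, 2 passed as higher and 6 as lower (66.7%, against 47.0% of all genes). The list's median was -0.57 against 0.01 for all genes. Under epithelial centring 2 were higher and 10 lower, where 623 of all 12393 genes were higher and 9845 lower. Spry1, an inhibitor of receptor tyrosine kinase signals, differed by -1.59 ± 0.08 (adjusted p = 6.21e-10), Dusp6, the phosphatase of ERK, by -1.15 ± 0.22 (adjusted p = 0.000569) and Spry2 by -0.85 ± 0.12 (adjusted p = 3.42e-05). Dusp10, a phosphatase of the stress kinases p38 and JNK, rose by 2.49 ± 0.13 (adjusted p = 1.19e-09) and Dusp7 by 1.07. Spry1 read 6.05 to 6.49 in culture and 7.77 to 8.01 in skin. Among 19 measured kinases and factors upstream, 6 were higher and 3 lower (47.4%, near the 47.0% of all genes), a balance that turned to 2 and 12 under epithelial centring. The ternary complex factor gene Elk3 rose by 1.57 and the ERK kinase gene Map2k1 by 1.18, while Rps6ka3 and Map3k1 fell by 0.90 and 0.86.

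**Figure D2:**
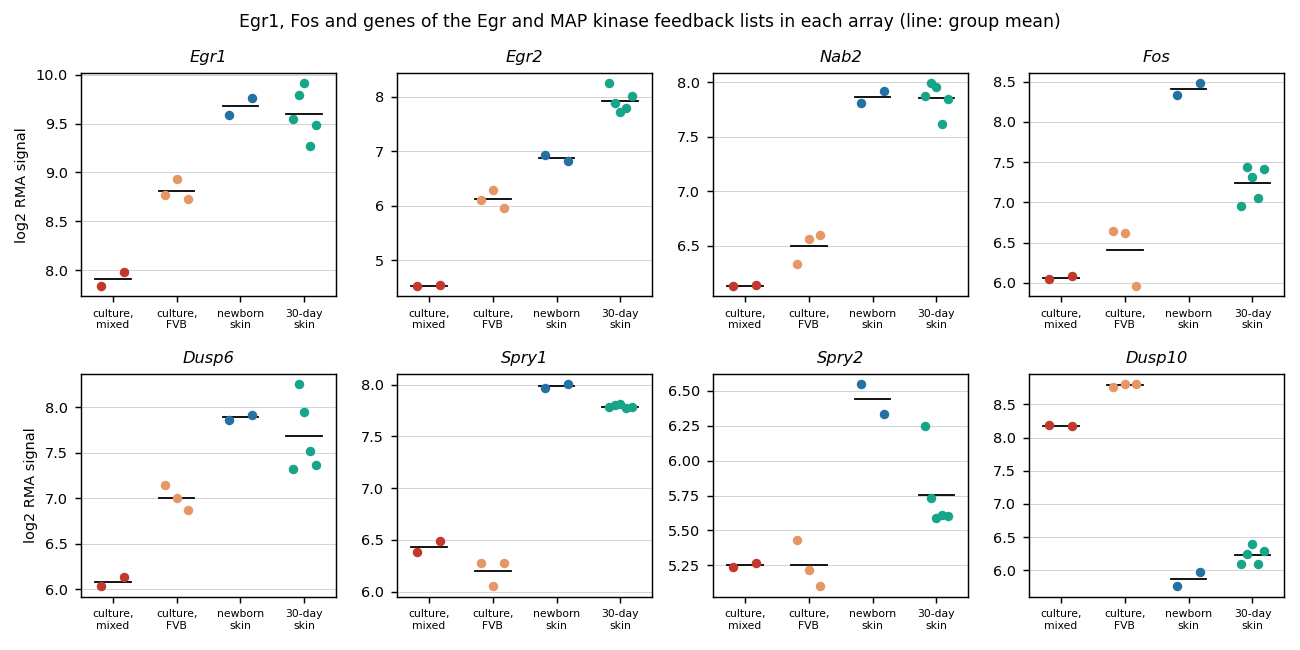
Log2 RMA signal (vertical axes) of Egr1, Fos and 6 genes of the Egr and feedback lists in each of the 12 arrays, by group; points are arrays and lines group means. Egr1, Egr2, Nab2, Fos, Dusp6, Spry1 and Spry2 are lower in all cultures than in all skin arrays and Dusp10 is higher, and Egr1, Egr2 and Dusp6 are lower in the 2 mixed-strain cultures than in the 3 FVB cultures.

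The other immediate early genes moved in both directions. Of 28 measured, 10 were higher and 6 lower in culture, which is 57.1% called against 47.0% of all genes, with a median of 0.03. Under epithelial centring the counts were 8 and 17, where 623 of all 12393 genes were higher and 9845 lower. Ier3, a survival gene, rose by 2.37 ± 0.16, Gadd45b, a stress response gene, by 2.21 ± 0.15, and Ccn1, a matrix signalling gene of the serum response, by 2.07 ± 0.18 (adjusted p = 1.34e-08, 2.02e-08 and 2.26e-07). Klf2, a factor of endothelium and lymphocytes, fell by 1.53 and the phosphatase gene Dusp2 by 1.29. Among 18 other AP-1 and bZIP partners, 5 were higher, led by Ddit3 (0.90) and Mafg (0.67), and 4 lower, led by Atf6 (-1.27). These 50.0% are near the 47.0% of all genes, and under epithelial centring 0 were higher and 12 lower.

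Genes known as AP-1 targets in keratinocytes were called for 16 of 20, 13 higher and 3 lower (80.0%, against 47.0% of all genes), with a median of 0.60. Under epithelial centring 7 were higher and 8 lower, where 623 of all 12393 genes were higher and 9845 lower. The cyclooxygenase gene Ptgs2 rose by 4.06 ± 0.31, Il1a by 2.99 ± 0.44 and the matrix protease gene Mmp9 by 2.66 ± 0.17 (adjusted p = 6.39e-08, 5.15e-05 and 1.03e-08). These 3 genes lay below every array median in all skin arrays, so the sizes of their differences are uncertain. The 3 that fell, Lor (-3.85), Ivl (-1.46) and Sprr1a (-0.83), encode cornified envelope proteins of differentiated keratinocytes.

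**Figure D3:**
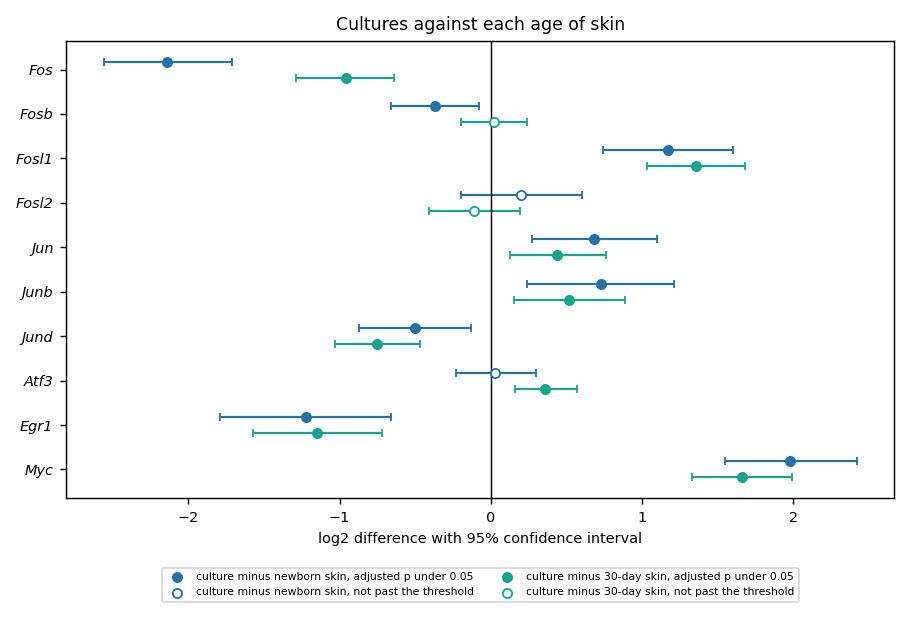
Log2 difference of the cultures from newborn skin (blue) and from 30-day skin (green) for each gene, with 95% confidence intervals from limma; filled points passed an adjusted p of 0.05 and open points did not. Both comparisons share the same 5 cultures. Fos lies at -2.14 and -0.96, and Myc at 1.98 and 1.66.

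Myc was the member that rose most. It read 8.06, 8.12, 8.62, 8.63 and 8.98 in cultures 1 to 5. It read 6.49 and 6.51 in newborn skin, and 6.84, 6.89, 6.96, 6.56 and 6.86 in 30-day skin. All cultures lay above all skin arrays by more than 1 unit. The difference was 1.98 ± 0.20 from newborn skin (3.96-fold, adjusted p = 2.15e-06) and 1.66 ± 0.15 from 30-day skin (3.16-fold, adjusted p = 4.71e-07), and against both ages 1.82 ± 0.15 (adjusted p = 1.13e-07), larger in size than that of 95.4% of all genes. Within FVB arrays it was 2.24 (adjusted p = 6.99e-09), and within mixed-strain arrays 1.27 (adjusted p = 1.26e-06).

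The other Myc family genes went the opposite way. Mycn, known from embryonic tissue and progenitors, read 5.28 to 5.80 in culture, 8.08 and 7.74 in newborn skin and 7.66 to 8.03 in 30-day skin, a difference of -2.27 ± 0.12 (adjusted p = 6.39e-10). Mycl read 5.47 to 5.85 in culture, 7.71 and 7.86 in newborn skin and 7.81 to 8.47 in 30-day skin, a difference of -2.37 ± 0.12 (adjusted p = 7.19e-10). Both lay below the array medians in all cultures, so the sizes are uncertain. Neither gene's arrays overlapped between culture and skin, and neither was called between the ages of skin. The rest of the Myc, Max and Mxd network moved less. Of 18 network genes measured, which include Mycn and Mycl, 3 were higher and 4 lower (38.9%, against 47.0% of all genes). Mlxipl, a relative that answers to glucose, fell by 0.52 to a mean of 5.14, against 5.66 in skin, both below the array medians. The helicase genes Ruvbl1 and Ruvbl2 were higher by 0.38 and 0.32 against both ages with overlapping arrays, at 0.70 and 0.53 against 30-day skin and at 0.06 and 0.12 against newborn skin, where no gene of the list was called higher. Under epithelial centring 0 of the network genes were higher and 17 lower, where 623 of all 12393 genes were higher and 9845 lower. Max, the partner of Myc, differed by -0.02 (adjusted p = 0.941).

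**Figure D4:**
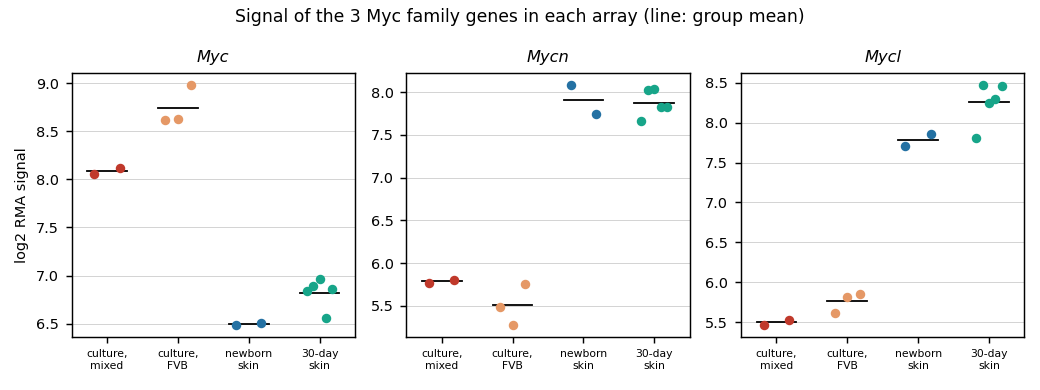
Log2 RMA signal (vertical axes) of Myc, Mycn and Mycl in each of the 12 arrays, by group; points are arrays and lines group means. Myc lies between 8.06 and 8.98 in culture and at most at 6.96 in skin, whereas Mycn and Mycl lie at most at 5.80 and 5.85 in culture and at least at 7.66 and 7.71 in skin.

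Genes known as Myc targets were called for 23 of 29, with 22 higher in culture and 1 lower, where 24.6% of all genes were higher. Their median difference was 0.61, where the epithelial reference genes had a median of 0.43 and a mean of 0.64. Under epithelial centring, which removes that mean, 5 were higher and 8 lower, where 623 of all 12393 genes were higher and 9845 lower. The nucleolar helicase gene Ddx21 rose by 1.56 ± 0.12, the transferrin receptor gene Tfrc by 1.53 ± 0.19 and the nucleolar gene Nolc1 by 1.15 ± 0.14 (adjusted p = 4.9e-08, 1.13e-05 and 8.84e-06). Odc1, which encodes the first enzyme of polyamine synthesis, was the exception at -0.48 ± 0.10 (adjusted p = 0.00104). Taking newborn skin alone as reference, 16 targets were higher and 1 lower, where 17.9% of all genes were higher. Epithelial centring changed these counts to 2 higher and 12 lower, where 365 of all genes were higher and 10081 lower. For 30-day skin alone the counts were 23 higher and 1 lower, where 26.5% of all genes were higher. They became 8 and 5 under the same centring, where 990 of all genes were higher and 8785 lower. The comparisons share the cultures.

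**Figure D5:**
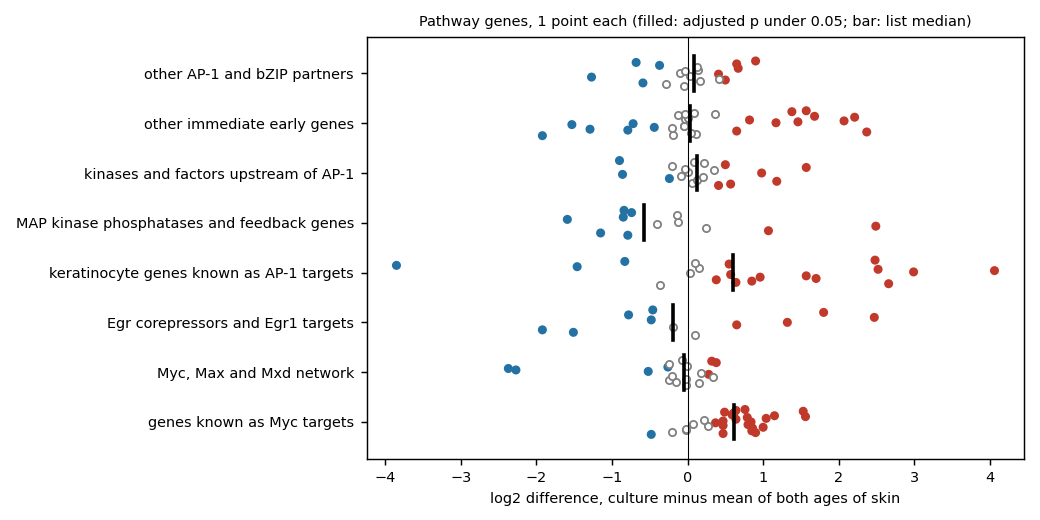
Log2 difference between culture and the mean of both ages of skin for each measured gene of 8 pathway lists; filled points passed an adjusted p of 0.05 (red higher, blue lower), open points did not, and the bar is the list median. The medians are 0.61 for Myc targets, 0.60 for AP-1 targets and -0.57 for phosphatases and feedback genes.

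The second question was what differs between newborn and 30-day skin. Fos was called, 2.25-fold lower in 30-day skin (-1.17 ± 0.20, adjusted p = 0.00107), and it was the only one of the 10 genes to pass, where 15.8% of all genes were called (9.84% lower). The 5 arrays of 30-day skin lay between 6.95 and 7.44, below the 8.34 and 8.48 of newborn skin. With strain as a covariate, which takes the strain difference from the cultures, Fos differed by -0.82 (adjusted p = 0.061), and with closely similar arrays averaged by -1.22 (adjusted p = 0.0556). Fosb and Atf3 were also lower in all 5 arrays of 30-day skin but missed the threshold, at -0.39 ± 0.13 (adjusted p = 0.0649) and -0.33 ± 0.12 (adjusted p = 0.0936). Egr1 differed by -0.08 (95% confidence interval -0.64 to 0.49) and Myc by 0.33 (95% confidence interval -0.11 to 0.76, adjusted p = 0.335). With strain as a covariate these became 0.82 (adjusted p = 0.0259) and 0.98 (adjusted p = 0.0032). Endothelial markers were also lower in 30-day skin, at 5.84 to 5.95 against 6.59 and 6.65 in newborn skin. Mast cell markers (6.28 to 6.74 against 7.78 and 7.82) and adipocyte markers (8.04 to 8.52 against 8.90 and 9.12) were lower too, and hair follicle markers higher (10.77 to 11.17 against 9.90 and 9.95). Both newborn arrays had a larger 3' excess of actin (0.99 and 1.14) than 4 of the 5 arrays of 30-day skin. Their part in the Fos difference was not tested.

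Between the ages of skin the pathway lists had from 1 to 7 called genes each, where 15.8% of all genes were called. Averaging closely similar arrays left newborn skin with 1 value, and most calls were then lost, among the lists and among all genes alike. With strain as a covariate the Myc targets had 2 higher and 0 lower, and the Egr list 2 and 2. In that setting 659 of all 12393 genes were higher and 733 lower. Among other immediate early genes Dusp2 was higher (0.82) and Ccn1 lower (-0.78) in 30-day skin, of 28 measured. Of 12 feedback genes Dusp14 was higher (1.50) and Spry2 lower (-0.68). Elk3 fell by 1.34 ± 0.14 (adjusted p = 1.66e-05) and Braf rose by 1.02, and Mapk8 was the third of 19 upstream genes to be called, at -0.50. Of 20 AP-1 targets 3 were higher and 4 lower, with Mmp3, the stromelysin gene, up by 1.89 and Cd44, the hyaluronan receptor gene, down by 0.92. Of 29 Myc targets Odc1 was higher (0.63) and Cad lower (-0.63).

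Among the cultures, Egr1 and Myc differed with strain. Egr1 averaged 7.91 ± 0.10 (SD, n = 2) in mixed-strain and 8.81 ± 0.10 (SD, n = 3) in FVB cultures, a difference of -0.89 ± 0.16 (1.86-fold, adjusted p = 0.0032), larger in size than that of 98.1% of all genes. Myc averaged 8.09 ± 0.04 (SD, n = 2) and 8.74 ± 0.21 (SD, n = 3), a difference of -0.65 ± 0.14 (1.57-fold, adjusted p = 0.00835). These were 2 of the 10 genes, and 9.84% of all genes were called (6.66% lower). Fosl1 was lower by 0.52 in the mixed cultures without passing (adjusted p = 0.0702), and Fos had overlapping values (-0.35, adjusted p = 0.293). Without culture 1 the differences of Egr1 and Myc were -0.82 and -0.62, and without culture 2 they were -0.96 and -0.68. Each of these fits leaves 1 mixed-strain culture, which is assumed to vary like the other groups, so no call is given. Averaging closely similar arrays in all groups, cultures 1 and 2 among them, left the differences at -0.89 and -0.65 with an adjusted p of 0.0736 for Egr1 and 0.157 for Myc.

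Other genes of the lists separated the cultures as well. Averaging closely similar arrays left 1 mixed-strain value, and most calls over all genes were then lost. The Egr and AP-1 target lists kept as many or nearly as many calls, whereas the other lists lost most of theirs. Egr2 read 4.52 and 4.54 in the mixed-strain cultures and 5.96 to 6.29 in the FVB cultures (-1.59 ± 0.15, adjusted p = 1.59e-05), and Dusp6 was lower by 0.93 ± 0.22 (adjusted p = 0.0167). The Myc partner gene Max was lower by 0.87. Of 29 Myc targets 7 were lower and 1 higher (27.6%, against 9.84% of all genes). The nucleolar gene Nop58 was lower by 1.12 and the folate enzyme gene Shmt2 by 0.61, and Tfrc was higher by 0.81. Il1a, Ptgs2 and Plaur, on the AP-1 target list, were higher in mixed-strain cultures by 2.41, 1.58 and 1.18, and Mmp13 and Mmp9 lower by 0.87 and 0.86. Mmp13 averaged 3.68 in mixed-strain and 4.54 in FVB cultures, below every array median, so its values may lie near background. The 2 mixed-strain cultures also stood apart in other measures. Their melanocyte markers averaged 8.53 and 8.55, against 7.04 to 7.06 in FVB cultures, their keratinocyte markers 10.01 and 10.04, against 10.58 to 10.64, and their actin 3' to 5' gap was 0.21 and 0.35, against 0.56 to 0.74. The part of these in the strain differences was not tested, and strain cannot be told apart from any other feature that cultures 1 and 2 share.

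For the 4 genes whose group means spanned more than 1 unit, the genes with the closest profiles over the 12 arrays were found by the root mean square (RMS) difference of values centred on each gene's mean. Closest to Myc were Erap1 (0.185), Itgb4 (0.194) and Fhl2 (0.203). Closest to Egr1 were Fhdc1 and Myb (0.164 each) and Dusp6 (0.186). Fosl1 was nearest to Vps37b (0.176), Eif6 (0.182) and Mark3 (0.184). Fos was nearest to Blvrb (0.228), H2az2 (0.233) and Pgap4 (0.244), each with newborn skin highest, 30-day skin between and culture lowest.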

How the data were processed

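Biotin-labelled RNA of 12 samples was hybridised to 1 Affymetrix array each. RMA made the deposited log2 values, per the submitters' processing notes. No version of it is stated in those notes. RMA corrects background, sets all arrays to 1 distribution and combines each probe set's probes into 1 value, so it assumes similar RNA distributions in skin and culture. The values used here come without detection calls, and the number of arrays limits the precision. Samples were grouped by title.

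Of 22690 probe sets 64 controls were left out. In the platform annotation 20380 probe sets have a single symbol, 691 have more and 1555 lack one, and 20351 were matched to RefSeq by gene identifier. The probe set with the highest mean represented each of 12393 genes. limma 3.58.1 in R 4.3.3 (lmFit, eBayes, two-sided, Benjamini-Hochberg over all genes, adjusted p under 0.05) fitted 1 mean per group over all 12 arrays, or 4 means where cultures were split by strain. Errors of differences are SEs and those of means SDs. A second fit covered all 22626 probe sets. The fits were tested on simulated data. Other normalisations and centrings, filters, probe set rules, thresholds, variance models, strain, the replicate number as a block and leaving out each array were tried as alternatives; averaging closely similar arrays was added after seeing the data. The rule for named genes took all members, up to 3 called genes per list and direction plus the largest that missed, and the 3 closest profiles; Max in the culture comparison was named after its value was seen. Members, lists and rules were chosen with earlier results of these data known, and the promoter motifs with the sequences known. Python 3.11.15, pandas 2.3.3 and matplotlib 3.10.9 made tables and drawings.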

Additional observations from a re-analysis of the deposited data

Results flagged for a closer look

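In 4 of 24 groups of 5 arrays examined (12 probe sets in culture and in 30-day skin), 1 array lay further from the others than Dixon's 95% limit. Chance flags about 1 in 20 groups. Culture 5 read 5.94 for the second Fosl1 probe set, against 5.19 to 5.40 in the other 4 cultures. Culture 2 read 6.95 for Fosl2, against 6.23 to 6.35. Culture 4 read 9.13 for Jund, against 8.57 to 8.72. Replicate 1 of 30-day skin, the array with the 3' actin excess, read 7.52 for Junb, against 8.32 to 8.58.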

How the results depend on the processing

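Against skin of either age or both, the differences of Myc and Egr1 kept their direction and stayed called in 82 of 82 alternatives each, from 1.14 to 2.24 and from -1.99 to -0.86. Fos did so in 81 of 82, the exception being the 2-fold requirement against 30-day skin, and Fosl1 in 78 of 79, the exception being epithelial centring against newborn skin. Jund kept its direction in 82 and lost its call in 14.

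The number of the 10 genes called in culture against skin as a whole was 7, and 4 with a 2-fold requirement as well. Of all 12393 genes 5829 were called, and 1452 with that requirement. Against newborn skin 8 members were called, and 4 at an adjusted p of 0.01, 4 with the 2-fold requirement and 5 with the replicate block. Of all genes 4522 were called, and in the same order 3342, 1572 and 3670. With closely similar arrays averaged newborn skin had 1 value, and fewer members and fewer of all genes were called. Against 30-day skin 8 members were called, and 3 with the 2-fold requirement and 5 with strain as a covariate or in strain-matched arrays. Of all genes 5989 were called, and in these settings 1529 and 5133. Between the ages of skin 1 member was called, and 2 after quantile normalisation again, 3 under epithelial centring and 3 with array weights. With strain as a covariate or with only the groups compared it was 2. Of all genes 1952 were called, and in the same order 1961, 3658, 3249, 1392 and 2108. With closely similar arrays averaged, again with 1 newborn value, fewer members and fewer of all genes were called. Between the strains in culture 2 members were called, and 0 with the 2-fold requirement and 5 with array weights. Of all genes 1219 were called, and in these settings 153 and 2894. With closely similar arrays averaged the mixed-strain cultures had 1 value, and fewer members and fewer of all genes were called. Leaving out single arrays gave 7 to 8, 4 to 8, 7 to 8, 1 to 2 and 0 to 3 genes in these comparisons. Without either newborn sample fewer members and fewer of all genes were called against newborn skin.

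Deviations from the group means of 9 same-numbered pairs correlated at -0.28 to 0.23. The deviations of the 2 newborn arrays are equal and opposite by construction. These correlations therefore cannot decide whether replicate numbers pair the samples. With the replicate block Atf3 against newborn skin turned to -0.07 and Junb between the ages to -0.03.

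Other differences that changed sign were small or shifted with the scaling. Under epithelial centring Fosb against 30-day skin was -0.50, Fosl2 was -0.60 against both ages and -0.57 against newborn skin, Jun was -0.08 in all 3 culture comparisons, -0.0039 between the ages and 0.03 between the strains, Junb was -0.02, -0.04 against newborn skin and -0.04 between the ages, and Atf3 was -0.44, -0.73 against newborn skin and -0.16 against 30-day skin. Fosl2 against 30-day skin was 0.00075 after quantile normalisation again, 0.04 under median centring and 0.12 with strain as a covariate or in strain-matched arrays. With strain as a covariate the differences between the ages were 0.33 for Fosl1, -0.07 for Fosl2 and 0.82 for Egr1. Jun between the strains was 0.07 after quantile normalisation again and 0.0062 with array weights, and Atf3 against newborn skin was -0.0039 with array weights. Without single arrays the ranges that crossed 0 were -0.07 to 0.07 for Fosb against 30-day skin, -0.09 to 0.09 for Fosl2 against both ages, -0.04 to 0.09 for Atf3 against newborn skin, -0.03 to 0.51 for Jun and -0.16 to 0.01 for Egr1 between the ages, and -0.18 to 0.03 for Jun and -0.24 to 0.02 for Jund between the strains. The cause of these changes was not tested. With 2 newborn samples and no detection calls in the values used, low signals such as Fosb and Fosl1 in skin are measured least well.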
